A study of Mus musculus with 6 samples.

Results

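The genes described here are 10 genes of marrow macrophages and monocytes: Cd163, Adgre1, Lyz2, Vcam1, Mrc1, C1qa, C1qb, C1qc, Cx3cr1 and Ccr2. They were chosen by symbol from the 52550 genes that the expression files list, and all 10 were found once each and passed the filter on low values. Poly(A) RNA of mouse bone marrow cells labelled as hematopoietic stem cells was sequenced in 3 wild-type (WT) and 3 knockout (KO) libraries. Mice of both groups carried loxP-flanked (f/f) Ppp2ca, which encodes a catalytic subunit of protein phosphatase 2A, and the KO mice also carried Vav1-Cre (VAV1crePpp2caf/f). The Vav1 promoter is active throughout the blood lineage, so macrophages and monocytes descend from cells in which this Cre acts. Age, sex and the surface markers of the isolation are not given in the sources used here, nor is it stated that the libraries came from separate animals. The p-values therefore measure the spread between these 6 samples, which may be technical.

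Macrophages of the marrow clear dying cells, take up expelled erythroblast nuclei and senescent red cells, and recycle their iron. Those at the centre of erythroblast islands are recognised by F4/80, the product of Adgre1, by VCAM-1 and by the scavenger receptor CD163. Monocytes arise from granulocyte-monocyte progenitors and leave the marrow through the chemokine receptor CCR2, and cells of the patrolling kind carry more CX3CR1. Resident macrophages are the main source of C1q, the recognition part of the classical complement pathway, which is built from the chains of C1qa, C1qb and C1qc.

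The libraries held 37951985 to 58692037 reads over genes, and values are normalised read counts, that is, reads divided by 1 size factor per library. Ppp2ca itself stood at 32909, 33451 and 33169 in WT and at 23728, 22419 and 24046 in KO (log2 fold change −0.50 ± 0.07 SE, limma adjusted p = 0.00268). The deleted exons are not stated, so this level is no measure of the deletion. All 12 stem cell markers looked at were read, which cannot settle the stem cell label. Their summed level in WT was 88037 to 100140, against 1347590 to 1596070 for 11 granulocyte-monocyte progenitor markers. Of the 12, 11 were called lower in KO, as were 13% of all tested genes. Slamf1 fell to 20.05% of the WT level, and Hlf averaged 1264 ± 379 in WT and 503.5 ± 105 in KO (SD, n = 3 each).

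The regions upstream are shown for Cd163, the gene with the largest fall, and for C1qb, the gene in which 2 of the motifs searched were found. Of the 10 genes, 7 had an entry among the RefSeq promoter sequences (GRCm38.p6). Each line gives the 250 bases before the RefSeq start, 5′ to 3′ in the direction of the gene, and capitals mark motif matches.
Cd163 (chr6:124304401-124304650, plus strand): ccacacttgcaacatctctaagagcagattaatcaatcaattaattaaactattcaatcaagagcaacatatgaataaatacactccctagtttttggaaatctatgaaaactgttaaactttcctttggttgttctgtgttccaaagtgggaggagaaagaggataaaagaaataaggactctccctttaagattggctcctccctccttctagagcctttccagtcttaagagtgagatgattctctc
C1qb (chr4:136886201-136886450, minus strand): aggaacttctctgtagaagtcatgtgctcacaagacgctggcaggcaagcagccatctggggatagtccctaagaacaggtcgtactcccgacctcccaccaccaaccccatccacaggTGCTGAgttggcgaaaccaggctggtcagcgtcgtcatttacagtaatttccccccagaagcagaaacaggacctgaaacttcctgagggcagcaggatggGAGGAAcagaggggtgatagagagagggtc
The motifs were searched on both strands, and no matches in the 7 regions overlapped each other. GAGGAA, the core of sites bound by the myeloid factor PU.1, stood in 3 of the 7 regions (Mrc1, C1qb and C1qc) and in 23.3% of all 32851 promoter regions of this length. In C1qb it began 30 bases before the start on the strand of the gene, and in C1qc 193 bases before the start on the other strand. TGCTGA, a short element bound by Maf factors, stood in C1qb and Lyz2, or 2 of 7, and in 16.1% of all regions. It began 131 bases before the start of C1qb and 125 before that of Lyz2. The C/EBP motif TTGCNNAA and the TATA box TATAAA had 0 matches in the 7 regions and stood in 9.56% and 12.4% of all regions. The windows of Cd163, Cx3cr1 and Ccr2 held no match to any of the 4 motifs. RefSeq starts differ from the ends of the gene spans given below. The Cx3cr1 window lies wholly inside its gene span, and those of Ccr2, Mrc1, C1qc and Lyz2 lie partly inside theirs.

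In KO libraries 5 of the 10 genes were called lower and 0 higher (limma, Benjamini-Hochberg adjusted p below 0.05 over 20136 genes), where 13% of all tested genes were called lower and 10.3% higher. These shares over all genes are also the background for the counts of other lists given below. The 5 genes called lower were Cd163, Adgre1, Lyz2, Cx3cr1 and Vcam1. The other 5 were Mrc1, the C1q chains and Ccr2, and only Ccr2 had an estimate above 0. At an unadjusted p below 0.05, 9 were lower and 0 higher, against 19.5% lower and 16.4% higher among all tested genes. On recovered reads edgeR called 5 lower and 0 higher (14.9% of all genes lower), and DESeq2 called 9 lower and 0 higher (15.4% of all genes lower). The median log2 fold change of the 10 was −1.71, against −0.02 over all genes tested. In 6 genes every KO value lay below every WT value, a pattern that 21.7% of all tested genes showed. Fewer cells of a type and less RNA per cell cannot be told apart in such bulk libraries. With WT replicate 2, KO replicate 1 or KO replicate 3 left out, 3 genes were called lower in each fit, where 8.45%, 10.9% and 8.8% of all genes were. Across the alternatives run, Cd163, Adgre1 and Lyz2 were called lower in all 18.

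**Figure D1:**
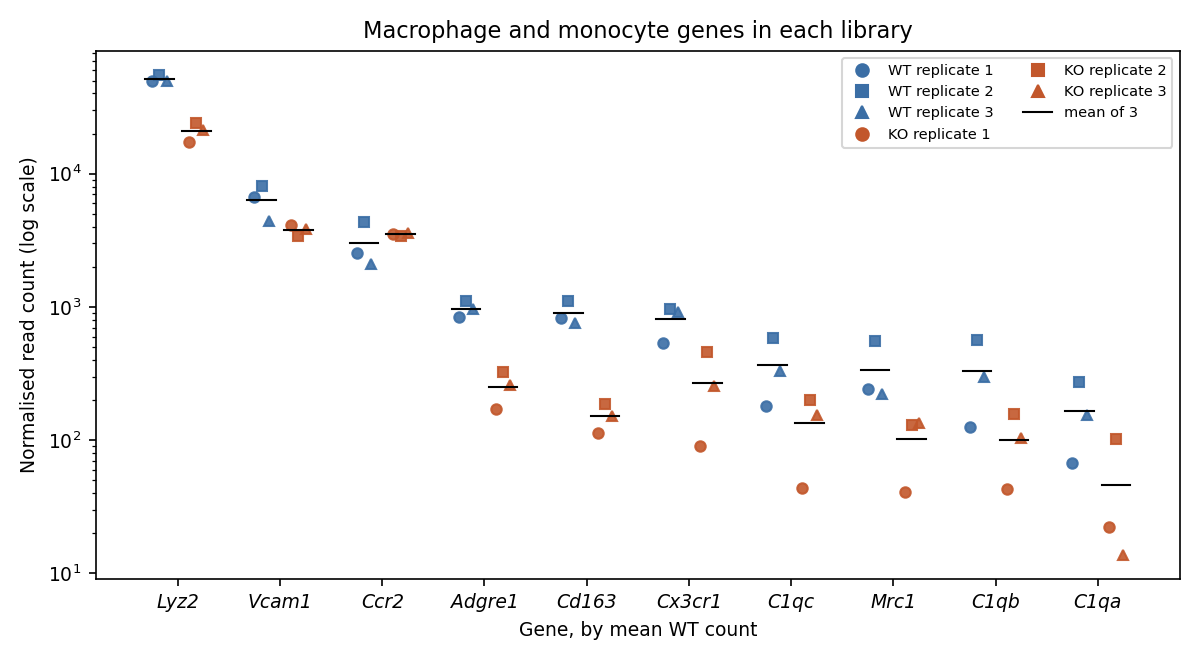
Normalised read count (log axis) of the 10 genes in each of the 6 libraries, with WT in blue, KO in orange, 1 symbol per replicate number and a bar at the mean of 3. WT replicate 2 is the highest WT library for all 10 genes, and Ccr2 is the gene whose KO mean lies above its WT mean.

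Cd163 showed the largest fall of the 10. It encodes the receptor that takes up haptoglobin-hemoglobin complexes (ENSMUSG00000008845.9, GRCm38 chromosome 6, 124304656 to 124330527). WT replicates 1 to 3 gave 829, 1112 and 753 normalised reads, and KO replicates 1 to 3 gave 113, 188 and 152, and values are listed in this order throughout. The groups lay far apart, with the highest KO value below the lowest WT value. From a WT mean of 898 ± 189 it fell to 151 ± 37.6 (SD, n = 3 each), or 16.8% of the WT level (log2 fold change −2.58 ± 0.25 SE, limma adjusted p = 0.000887). Leaving out any 1 library gave estimates between −2.75 and −2.38.

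Mrc1, the mannose receptor CD206 of resident macrophages (ENSMUSG00000026712.3, chromosome 2, 14229392 to 14332057), had WT counts of 243, 551 and 223 against KO counts of 40.7, 129.7 and 135. The groups did not overlap, but WT replicate 2 and KO replicate 1 stood apart within them. The means were 339 ± 184 and 102 ± 53.1 (SD, n = 3 each), a difference that just missed the threshold (log2 fold change −1.78 ± 0.54 SE, limma adjusted p = 0.0502). It passed in 8 of 18 alternatives, among them edgeR (adjusted p = 0.0412), DESeq2 (adjusted p = 0.00256) and the fit without KO replicate 2 (−2.05, adjusted p = 0.0494).

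Adgre1 encodes F4/80, an adhesion G protein-coupled receptor used to recognise mouse macrophages (ENSMUSG00000004730.14, chromosome 17, 57358686 to 57483529). WT libraries held 841, 1113 and 961 normalised reads and KO libraries 170.4, 323 and 261. All KO libraries lay below all WT libraries. The mean fell from 972 ± 136 to 251 ± 76.8 (SD, n = 3 each), or to 25.9% (log2 fold change −1.99 ± 0.25 SE, limma adjusted p = 0.00215). Of its relatives, Adgre4 fell by 2.56 on the log2 scale (576 ± 213 to 102 ± 50.1, adjusted p = 0.00686), while the broadly expressed leukocyte gene Adgre5 rose by 0.61 (1024 ± 170 to 1551 ± 120.4, adjusted p = 0.0249). Adgre5 lost its call in 4 of 18 alternatives, 3 of which left out WT replicate 1 (0.46), KO replicate 1 (0.63) or KO replicate 3 (0.55).

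Lyz2, the lysozyme gene of macrophages, monocytes and granulocytes (ENSMUSG00000069516.8, chromosome 10, 117277331 to 117282321), was the most abundant of the 10. Counts reached 49252, 55247 and 49595 in the WT libraries and 17183, 24102 and 21135 in the KO libraries. WT libraries differed little among themselves, the highest being 1.12 times the lowest, and none reached down to the KO values. The mean fell from 51364.5 ± 3367 to 20807 ± 3471 (SD, n = 3 each), or to 40.5% (log2 fold change −1.32 ± 0.13 SE, limma adjusted p = 0.000885). The neighbouring paralog Lyz1 gave WT counts of 58.5, 79.0 and 62.4 and KO counts of 0, 37.3 and 16.4. How reads shared by such similar genes were counted is not given, so the Lyz1 values are uncertain, and its difference did not pass (adjusted p = 0.127), except in 1 alternative, the fit without KO replicate 2 (−4.01, adjusted p = 0.0442).

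Vcam1 encodes the adhesion molecule that binds alpha4 integrins on blood cells and is also made by endothelium and stroma (ENSMUSG00000027962.14, chromosome 3, 116109949 to 116129688). In WT it reached 6633, 8110.5 and 4392, in KO 4119.7, 3392 and 3861. The groups did not overlap, but WT replicate 3 lay close to the KO libraries. The mean was 6379 ± 1872 in WT and 3791 ± 369 in KO (SD, n = 3 each), and Vcam1 was called lower (log2 fold change −0.71 ± 0.21 SE, limma adjusted p = 0.0451). That call was lost in 10 of 18 alternatives, with adjusted p-values up to 0.132. Among them were the fits without WT replicate 1 (−0.66), WT replicate 2 (−0.51), KO replicate 1 (−0.77), KO replicate 2 (−0.63) and KO replicate 3 (−0.73). An antisense gene, Gm43109, shares 61 exon bases with Vcam1 and had between 0 and 48.5 normalised reads. Whether reads were counted by strand is not given, so reads in that stretch cannot be told apart.

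The integrin partners of VCAM-1 were read in all libraries except Itga9 in KO replicate 1. Of 6 tested, 2 fell, Itga9 (90.9 ± 11.5 to 8.37 ± 8.64, means ± SD of 3 libraries, as for all genes outside the set) and Itgb7 (3042 ± 575 to 1368 ± 518). Itga4, the alpha4 chain, stood at 3489 ± 136 in WT against 3489 ± 99.9 in KO (log2 fold change 0.00, SE 0.08, adjusted p = 0.9997). The Itga9 call was lost without any 1 of WT replicates 1, 2 and 3 (−4.02, −4.01 and −4.18), and the Itgb7 call without WT replicate 2 (−1.06) and without KO replicate 3 (−1.24). The median log2 fold change of the 6 was −0.54, against −0.02 over all genes.

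**Figure D2:**
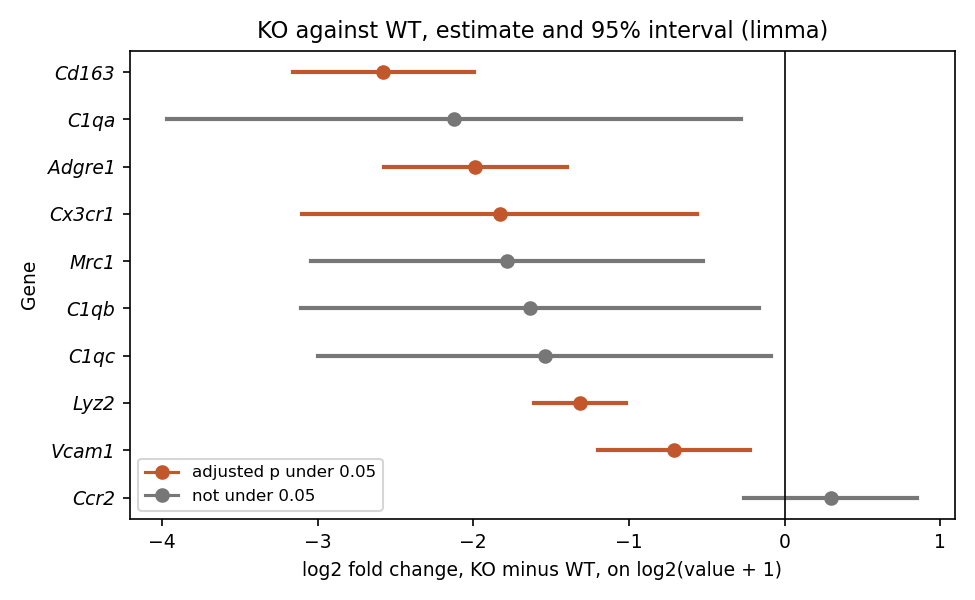
Log2 fold change, KO minus WT, on the log2(value + 1) scale for the 10 genes, with 95% intervals from limma (3 libraries per group). The intervals of Cd163, Adgre1 and Lyz2 end farthest below 0, and the interval of Ccr2, from −0.26 to 0.85, includes 0.

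The C1q genes lie together on the minus strand of chromosome 4, within 18675 bases (136880129 to 136898803). C1qa (ENSMUSG00000036887.5, 136895917 to 136898803) gave WT counts of 67.8, 274 and 155, and KO counts of 22.5, 102.2 and 13.8. C1qb (ENSMUSG00000036905.8, 136880129 to 136886187) gave WT counts of 126, 568 and 297, and KO counts of 42.9, 156 and 104. C1qc (ENSMUSG00000036896.5, 136889804 to 136893065) gave WT counts of 181, 582 and 328, and KO counts of 43.9, 201 and 155. For each chain the order of the WT libraries was the same, with replicate 2 highest and replicate 1 lowest. WT replicate 1 overlapped the KO range for every chain, since it lay below KO replicate 2.

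KO means were 27.9%, 30.5% and 36.7% of the WT means for C1qa, C1qb and C1qc. None of the differences passed: the log2 fold change was −2.12 ± 0.80 SE for C1qa (limma adjusted p = 0.0954), −1.64 ± 0.63 for C1qb (adjusted p = 0.105) and −1.54 ± 0.63 for C1qc (adjusted p = 0.1199). The intervals reach from near 0 to large falls, as for C1qb with −3.10 to −0.17. The spread between replicates was wide, with the highest WT value 4.04, 4.50 and 3.21 times the lowest for the 3 chains. Single libraries decided calls here: C1qa passed without KO replicate 2 (−2.94, adjusted p = 0.0180) and C1qb without WT replicate 1 (−2.20, adjusted p = 0.0490). DESeq2 called all 3 lower, with adjusted p-values of 0.0408, 0.00905 and 0.0249. The estimates of C1qa, C1qb and C1qc were −1.65, −1.12 and −1.12 without WT replicate 2, and that of C1qc was −0.88 without KO replicate 1.

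The C1qa share was alike in 5 of the libraries. In those 5, C1qb shares ran from 33.6% to 39.9% and C1qc shares from 40.2% to 48.3%. Of all C1q reads, C1qa held 18.1%, 19.2% and 19.9% in WT replicates 1 to 3 and 20.6% and 22.2% in KO replicates 1 and 2. KO replicate 3 stood apart with 16 C1qa reads of 316, or 5.06% (95% exact binomial interval 2.92% to 8.09%). Its C1qb share was 37.97%, within the range of the other libraries, and its C1qc share was 57.0%, above the 40.2% to 48.3% of the other libraries. The smallest C1q total was that of KO replicate 1, with 102 reads, where the C1qa interval ran from 13.2% to 29.7%. Intervals cover counting error only, as the reads carry no molecular identifiers.

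**Figure D3:**
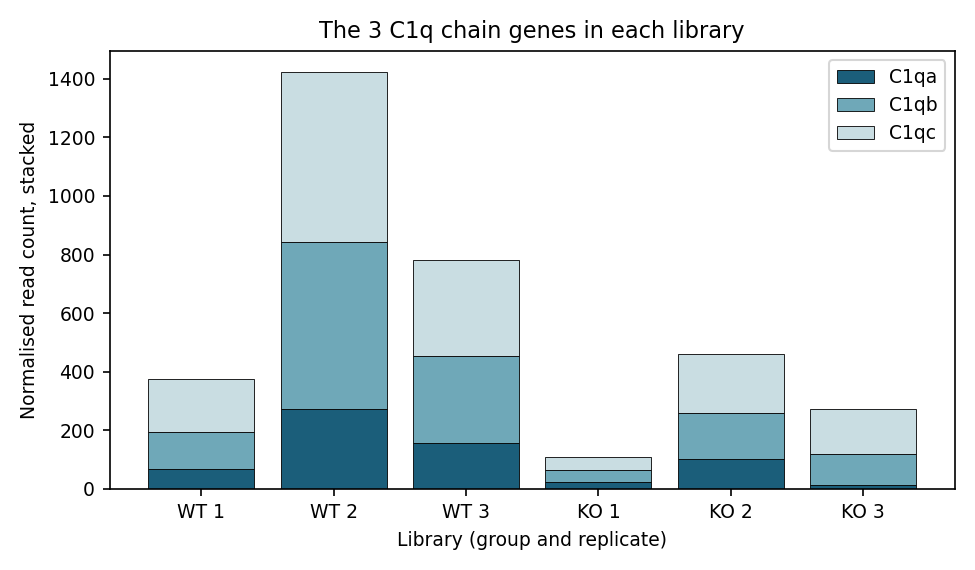
Normalised read counts of C1qa, C1qb and C1qc, stacked, in each library of WT and KO replicates 1 to 3. The stacks sum to 375, 1425 and 781 in WT and to 109, 460 and 273 in KO, so WT replicate 1 stands below KO replicate 2.

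Among other genes of the classical complement pathway and C1q receptors, 6 of 18 tested rose and 5 fell, with a median log2 fold change of 0.03. C4b, a later component of the same pathway, rose from 126 ± 84.9 to 608 ± 183 (2.45 ± 0.50 SE, limma adjusted p = 0.0116). C3, on which all complement pathways converge, rose from 3027 ± 199 to 4689 ± 854 (0.62, adjusted p = 0.0175). Its call was lost without WT replicate 1 (0.57) and without KO replicate 3 (0.62). The complement regulator gene Cd55 fell from 1113 ± 132 to 303 ± 107, by 1.93 on the log2 scale. No call was made for C2, with a WT mean of 40.3 ± 15.1 and a KO mean of 55.0 ± 33.1 (adjusted p = 0.682).

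Of the chemokine receptors of the set, Cx3cr1 was called lower and Ccr2 was not called. Cx3cr1, the receptor for fractalkine (ENSMUSG00000052336.7, chromosome 9, 119901616 to 120069879), stood at 536, 966 and 919 in the WT libraries, against 90.0, 457 and 255 in the KO libraries. The groups did not overlap, and KO libraries spread 5.07-fold between lowest and highest. The mean was 807 ± 236 in WT and 267 ± 184 in KO (SD, n = 3 each), a fall to 33.1% (log2 fold change −1.83 ± 0.55 SE, limma adjusted p = 0.0472). Of 18 alternatives, 10 lost the call, edgeR included (adjusted p = 0.0529). Without KO replicate 1 the estimate was −1.19 (adjusted p = 0.0510). The call was also lost without WT replicate 1 (−2.10), WT replicate 2 (−1.68), WT replicate 3 (−1.71) and KO replicate 3 (−1.94). An antisense gene, Gm33858, shares 78 exon bases with Cx3cr1, and reads there cannot be told apart without strand.

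Ccr2, the receptor for CCL2 on classical monocytes (ENSMUSG00000049103.14, chromosome 9, 124101950 to 124113557), stood at 2535, 4364 and 2114 in the WT libraries, against 3544, 3399 and 3592 in the KO libraries. The KO libraries lay close together, inside the WT range. The mean was 3004 ± 1196 in WT and 3512 ± 100.5 in KO (SD, n = 3 each), or 117% of WT, and the difference did not pass (log2 fold change 0.30 ± 0.24 SE, limma adjusted p = 0.434). Its 95% interval ran from −0.26 to 0.85. The outcome turned on WT replicate 2: without it Ccr2 was called higher (0.60, adjusted p = 0.0212), as were 8.36% of all genes, and without WT replicate 3 the estimate was 0.08.

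Relative to Ccr2 in the same library, the other 9 genes all had lower mean ratios in KO, with log2 differences from −1.01 (Vcam1) to −2.87 (Cd163). Ccr2 was the only gene of the set with a positive estimate, so these lower mean ratios follow from taking it as the reference. For 8 of them the 3 KO ratios lay below the 3 WT ratios (two-sided exact permutation p = 0.1, adjusted over the 9 genes 0.1125). That is the smallest p that 3 against 3 libraries allow, and 17.8% of the 20135 other tested genes, these 9 included, had KO ratios to Ccr2 that all lay below the WT ratios. For C1qa the ratios overlapped (exact permutation p = 0.2). These 9 comparisons share the Ccr2 values of the same libraries.

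Of 15 tested chemokine ligands and receptors, 1 rose and 4 fell, with a median of −0.19. The gene that rose was Ccr1, a receptor of inflammatory chemokines named here after its value was seen (0.81 on the log2 scale). Its call was lost without WT replicate 1, 2 or 3 (0.86, 0.87 and 0.71) and without KO replicate 1 or 3 (0.67 and 0.73). Cxcl12, the chemokine that holds stem cells and progenitors in the marrow, averaged 28.0 ± 9.26 in WT with 0 reads in all 3 KO libraries, and was thus at least 9.59-fold lower when KO is set to a floor of 3 reads in each. Ccl6, a chemokine of myeloid cells, fell from 3138 ± 393 to 1156 ± 30.7 (−1.43, limma adjusted p = 0.000643). The lymphoid homing receptor Ccr7, at 80.1 ± 27.1 in WT against 9.97 ± 9.20 in KO, was called lower, a call lost without WT replicate 1 (−3.51), WT replicate 2 (−3.44) or WT replicate 3 (−3.95). Ccl4, a chemokine of activated macrophages, also fell (log2 fold change −0.99) and was likewise picked by its value. No difference passed for Ccl2, the CCR2 ligand (WT 149 ± 91.9, KO 128 ± 23.9, log2 fold change 0.06, adjusted p = 0.955). The genes of the related ligands Ccl7 and Ccl12 had 0 reads in all 6 libraries.

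Set per kilobase of exon, so that levels of different genes can be compared, Lyz2 led in both groups with 39031 ± 2558 normalised reads per kilobase in WT and 15811 ± 2638 in KO. In WT it was followed by Vcam1 (719 ± 211), Ccr2 (444 ± 177), C1qb (304 ± 205), Adgre1 (300.2 ± 42.2), C1qc (189 ± 105), Cx3cr1 (179 ± 52.4), Cd163 (164 ± 34.7), C1qa (159 ± 99.5) and Mrc1 (53.2 ± 28.8). Only Lyz2 was separated from its neighbour in that order: in the other 8 of 9 neighbouring pairs the ranges over 3 libraries overlapped. In KO, Ccr2 (519 ± 14.9) stood above Vcam1 (427 ± 41.6) with no overlap, and Vcam1 above C1qb (92.7 ± 52.1). The levels from C1qb down to Mrc1 (16.0 ± 8.34) overlapped from each gene to the next, with Cd163 (27.6 ± 6.88) in ninth place.

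WT replicate 2 held the highest WT value for 10 of the 10 genes, where 32.5% of all tested genes showed that order. KO replicate 1 held the lowest KO value for 7 of 10 (38% of all genes) and KO replicate 2 the highest for 7 of 10 (38% as well). The 7 genes lowest in KO replicate 1 also had their WT maximum in WT replicate 2, an order seen in 12.6% of all genes. These orders were looked at after the values were seen and describe the libraries only. Of 38 tested monocyte and macrophage genes outside the set, 28 were highest in WT replicate 2 and 22 lowest in KO replicate 1.

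The genes whose levels followed the 10 most closely were Prg2, Ppp1r15a, Poli, Ear1 and Ear2, chosen out of 15136 genes whose mean reached 20. Their Pearson correlations with the mean centred log2 profile of the 10 genes were 0.993 to 0.996 over the 6 libraries, which share the genotype difference. Prg2, which encodes eosinophil major basic protein, stood at 28438, 72382 and 33433 in WT, against 3673, 11889 and 8242 in KO. WT replicate 2 was highest and KO replicate 1 lowest, as in 7 of the 10 genes. Ear1, an eosinophil-associated ribonuclease gene, stood at 4217, 12662 and 4065 in WT, against 390.1, 1783 and 1013 in KO, and belongs to a family of near-identical genes whose reads are uncertain.

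Of 40 further monocyte and macrophage genes, 38 were tested: 12 fell, 3 rose and 23 did not pass, with a median log2 fold change of −0.83. Their summed level overlapped between the groups, at 102005 to 140805 in WT and 120212 to 135244 in KO. Marco and Folr2, markers of resident macrophages of other tissues, had too few reads to be tested. Cd36, a scavenger receptor for lipids, averaged 110.1 ± 45.0 in WT with 0 reads in all 3 KO libraries, at least 37.7-fold lower with the same floor. Nr4a1, a nuclear receptor needed by patrolling monocytes, fell from 3674 ± 2106 to 443 ± 39.7 (−2.91 ± 0.34 SE, limma adjusted p = 0.00162). Maf, a macrophage transcription factor, fell from 79.3 ± 21.7 to 10.2 ± 2.56 (−2.84, adjusted p = 0.00449), and Spic, the factor of iron-recycling macrophages, from 102.1 ± 33.5 to 17.1 ± 6.68 (−2.54, adjusted p = 0.00906). The calls for Nr4a1, Maf and Spic held in all 18 alternatives.

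Cd14, Fcgr1 and Cybb were the genes of this list called higher. Cd14, the endotoxin co-receptor, rose from 375 ± 98.9 to 918 ± 36.8 (1.32 ± 0.20 SE, limma adjusted p = 0.00405). Fcgr1, the high-affinity IgG receptor, rose from 45.4 ± 29.8 to 123.4 ± 18.7 (1.61, adjusted p = 0.0495), but 10 of 18 alternatives lost the call. Leaving out WT replicate 1 or 3, or any 1 KO replicate, was enough, with estimates of 1.2 to 1.71. Cybb, an oxidase subunit of phagocytes named after its value was seen, rose from 6528 ± 1750 to 15524 ± 2030 (1.28, adjusted p = 0.00468). The classical monocyte gene Ly6c2 stood at 43199 ± 9418 in WT against 49233 ± 3350 in KO (0.21, adjusted p = 0.3598), and the lysosomal glycoprotein gene Cd68 at 1925 ± 371 against 2416 ± 63.8 (0.34, adjusted p = 0.127). Both passed as higher without WT replicate 2 (0.38 for Ly6c2 and 0.49 for Cd68), a fit in which 7 genes of the list were called higher.

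Among the fits with 1 library left out, 4 further macrophage genes passed only without KO replicate 2, which held the highest KO value of each. Csf1r, the receptor for the macrophage growth factor CSF1, stood at 6766 ± 1044 in WT against 4526 ± 1896 in KO (−0.66, limma adjusted p = 0.144). Itgam, which encodes CD11b, averaged 2864 ± 657 and 1727 ± 722 (−0.79, adjusted p = 0.0912). A second listed gene of the same symbol overlaps it, at 538, 0 and 116 in WT and 630, 0 and 1120 in KO. How reads were split between these Itgam entries is not given, so the level, library order and calls of Itgam are uncertain. Siglec1, the sialoadhesin of island macrophages, averaged 29.1 ± 6.13 and 5.08 ± 6.06 (−2.95, adjusted p = 0.0549), and Mertk, a receptor for dying cells, 37.2 ± 17.3 and 12.3 ± 19.2 (−2.83, adjusted p = 0.138). With all 6 libraries none of the 4 was called by the limma test as described, though alternatives that kept all libraries called each of them at least once. Without KO replicate 2 each was called lower, at −0.96 for Csf1r, −1.10 for Itgam, −3.81 for Siglec1 and −4.23 for Mertk.

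**Figure D4:**
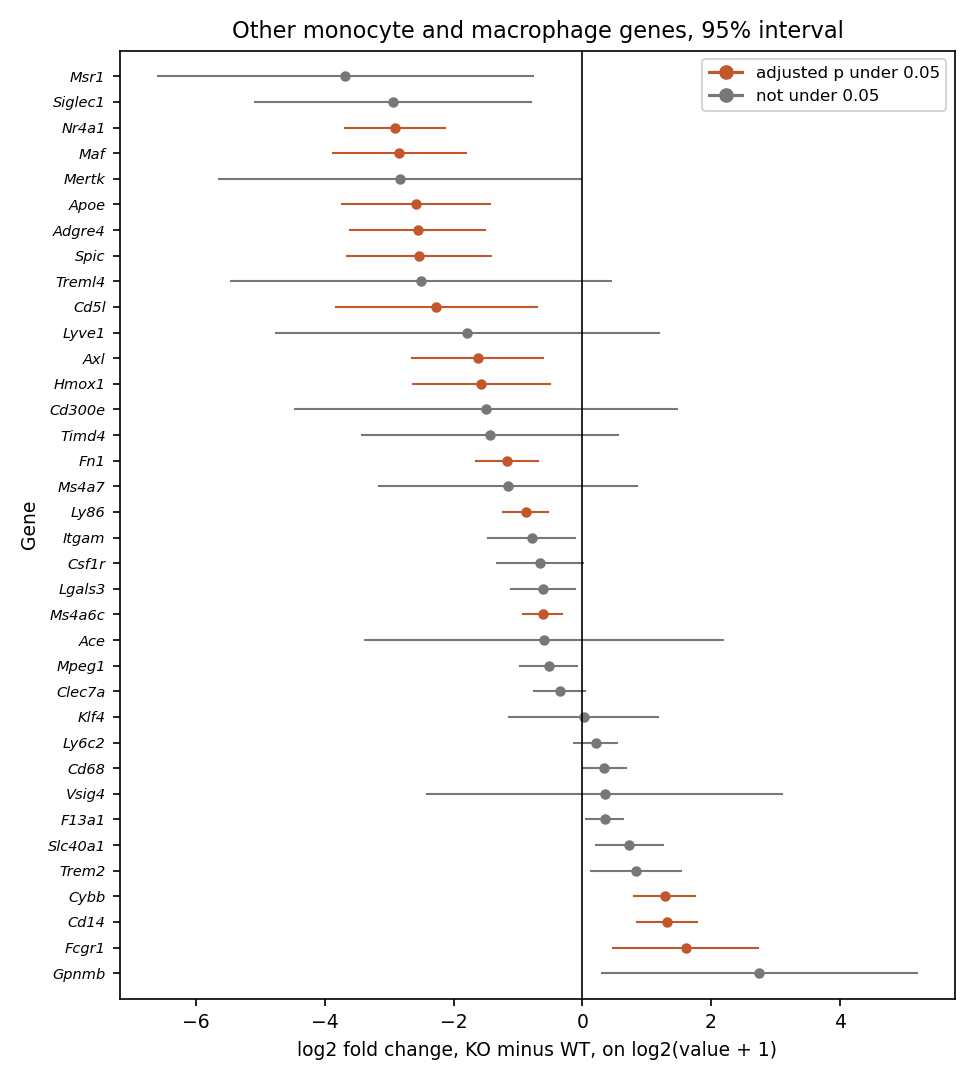
Log2 fold change, KO minus WT, on the log2(value + 1) scale with 95% limma intervals for tested monocyte and macrophage genes outside the set, without Cd36, whose KO libraries are all at 0. Nr4a1, Maf and Spic lie far below 0 while Cd14, Cybb and Fcgr1 were called higher.

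Transcription factors of the lineage went both ways. Of 17 tested, 4 rose and 6 fell, with a median of −0.14. Cebpa, Cebpb and Tfec, picked here by their values, had log2 fold changes of 0.81, 1.01 and 0.81, the Cebpa call being lost without KO replicate 2 (0.67) and without KO replicate 3 (0.81). Spi1, which encodes PU.1, rose from 11744 ± 1135 to 17222 ± 1172 (0.55 ± 0.10 SE, limma adjusted p = 0.00699). Irf8, needed for monocyte and dendritic cell fate, fell from 14750 ± 3328 to 7069 ± 1152 (−1.05 ± 0.18 SE, adjusted p = 0.00571). Of 11 tested genes of erythroblast island macrophages outside the set, 5 fell and 0 rose, with a median of −1.63 (13% of all tested genes fell). The summed level of the list overlapped between the groups, at 10849 to 14295 in WT and 12987 to 15870 in KO. Slc40a1, named after its value was seen, was not called but passed as higher without WT replicate 2 (0.94) or KO replicate 2 (0.91). Beside Spic, Hmox1 and Axl, the genes that fell were Epor, the erythropoietin receptor gene that erythroid cells also express (508 ± 18.2 to 134.5 ± 10.3), and Palld (97.5 ± 9.53 to 26.8 ± 1.55). Hmox1, the heme oxygenase gene (−1.57), and Axl, a receptor for dying cells (−1.63), lost their calls without WT replicate 2 (−1.14 and −1.33), WT replicate 3 (−1.62 and −1.58), KO replicate 1 (−1.21 and −1.28) or KO replicate 3 (−1.68 and −1.59).

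Of 16 tested lysozyme, lectin, scavenger and adhesion receptor relatives, 5 rose and 5 fell, with a median of −0.9987. Beside Adgre5, those that rose were Clec4e, Stab1, Scarb1 and Scarb2 (0.84, 0.75, 0.56 and 0.68), and beside Cd36, Cd209a and Adgre4, those that fell were Clec4a1 and Cd5l (−1.41 and −2.27), all 6 named after their values were seen. The calls of Clec4e, Stab1, Scarb1 and Scarb2 were lost without KO replicate 3 (0.78, 0.61, 0.54 and 0.71), and the first 3 also without WT replicate 3 (0.83, 0.70 and 0.53) or KO replicate 2 (0.76, 0.76 and 0.46). Without WT replicate 2 the calls of Clec4e and Stab1 were lost (0.70 and 0.83), and without WT replicate 1 those of Stab1 and Scarb1 (0.72 and 0.47). Clec4a1 lost its call without WT replicate 2 (−1.21) or KO replicate 3 (−1.42), and Cd5l without any 1 library other than KO replicate 2 (−2.55 to −1.62). The dendritic cell lectin Cd209a stood at 182 ± 14.3 in WT against 2.62 ± 4.54 in KO (−6.47, limma adjusted p = 0.00261).

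Markers of other cell types moved between the groups as well, and their part in the results above was not tested. Among all tested genes 13% fell and 10.3% rose. Erythroid markers fell in 11 of 14 tested genes and rose in 1 (Tfrc, the transferrin receptor gene, named after its value was seen, whose call was lost without KO replicate 3 at 1.39), and their summed level was 53697 to 62484 in WT and 20182 to 35165 in KO. Dendritic cell markers fell in 11 of 15 (summed level 42853 to 50008 in WT and 16588 to 19347 in KO), among them Siglech, which was at 0 in KO replicates 1 and 3. Stromal and endothelial markers fell in 7 of 9 tested genes of 15 listed (Cxcl12, Col1a2, Kdr, Pecam1, Emcn, Tek and Angpt1). Col1a2 and Pecam1 lost their calls without any 1 WT replicate or without KO replicate 3 (−4.96 to −4.34 and −0.84 to −0.76). The sum of the list was 21597 to 28706 in WT and 4647 to 8941 in KO, while the defining genes Cdh5 and Col3a1 were at 0 in all 6 libraries. Which cells express the 7 here was not tested, so this sum is no measure of stromal or endothelial cells. Granulocyte-monocyte progenitor markers rose in 8 of 11 and fell in 1 (Cd34), with sums of 1347590 to 1596070 in WT and 1956150 to 2157420 in KO, and Ms4a3 rose to 284% of its WT level. The Mpo call was lost without WT replicate 1 or 3 or KO replicate 1 or 3 (0.32 to 0.37). That of Elane was lost without WT replicate 3 (0.40) or KO replicate 3 (0.38). Neutrophil markers rose in 4 of 13 (Lcn2, Cd177, S100a8 and S100a9, the S100 genes losing their calls without WT replicate 1 or 3 or KO replicate 1 or 3, and S100a8 also without WT replicate 2, at 0.65 to 1.09 for S100a8 and 0.88 to 1.2 for S100a9) and fell in 1 (Retnlg), with sums of 96414 to 157786 in WT and 141764 to 289205 in KO. The summed level of the 10 macrophage and monocyte genes, in which Lyz2 is by far the largest, was 59738 to 72889 in WT and 25370 to 32450 in KO. B lineage markers fell in 2 of 7 tested genes, Igkc and Ighm (sum 31259 to 54146 in WT and 5955 to 7193 in KO), with Pax5 and Ebf1 at 0 in all libraries. T and NK markers fell in 7 of 10 and rose in 1 (Nkg7, a call lost without KO replicate 3 at 0.32), with sums of 34682 to 35865 in WT and 41773 to 44084 in KO, and with Cd8a at 0 in all libraries. The higher sum in KO does not describe the 7 that fell, as Nkg7 alone of the list was called higher.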

How the data were processed

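Per the labels' protocols, RNA was isolated with Trizol and poly(A) libraries were built with a VAHTS kit. The submitters' processing notes list HISAT2, StringTie, mm8 and mm10 with no roles. The deposited files give the authors' signal per gene. Of 52550 identifiers, 49035 matched GENCODE M21 with the same start and end, so coordinates are GRCm38. Exon lengths came from GENCODE M21, for Adgre1 from another version of its identifier. All values (100%) were whole multiples of 1 step per library within 0.01 of a read, so they are read counts divided by a size factor, and whole reads were recovered. The counting tool and its strand setting are not given in the sources used here.

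KO was tested against WT on log2(value + 1) with limma 3.58.1 in R 4.3.3, using eBayes and its intensity trend. Kept were 20136 genes that reached 1 in 3 or more of the 6 libraries. Fold changes on this scale understate changes of low genes. P-values were two-sided and Benjamini-Hochberg adjusted over all tested genes, with a threshold of 0.05. The procedure was tested on simulated data. Alternatives were limma without trend, robust, with library quality weights, with upper quartile, TMM or quantile scaling, a pseudocount of 0.1, no filter, a minimum of 5, the replicate number as a block, each library left out, edgeR 4.0.16 and DESeq2 1.42.0 on recovered reads.

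The 10 genes, the lists and the naming rule were chosen with earlier results of these data known. Named were all 10 genes, of each list up to 3 called genes with the largest changes and a mean of at least 20, a fixed set of lineage genes whatever their p, and the 5 genes closest in pattern. A few genes that meet this rule are not reported here. Each of the 6 pairs of libraries within a group differed by more than sampling noise, so none was counted as a duplicate. On the recovered reads edgeR called 2496 genes lower and 2075 higher, and DESeq2 2964 lower and 2430 higher. Promoter sequences came from RefSeq.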

Additional observations from a re-analysis of the deposited data

How the results depend on the processing

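The estimate was below 0 for 9 of the 10 genes and above 0 for Ccr2 in all 18 alternatives, and no estimate changed sign. The count of genes called lower was 5. It was 3 without the intensity trend, with a pseudocount of 0.1 and with no filter (8.69%, 11.9% and 8.9% of all genes lower), 8 with library quality weights (18% of all genes), and 9 with DESeq2. It ranged from 3 to 6 when 1 library was left out, and the count called higher ranged from 0 to 1. Quantile normalization moved all genes by a median of 0.22 on the log2 scale and left 4 of the 10 called lower (10.9% of all genes). Of the further monocyte and macrophage genes, 3 were called higher, against 6 with library quality weights and 5 with upper quartile scaling, and 2 to 7 when 1 library was left out. Over all genes, 2622 were lower and 2069 higher. The higher count was 1071 without the intensity trend and 3198 with library quality weights. With 1 library left out, the lower count was 1565 to 2604 and the higher count 993 to 1787, with fewer samples in each fit (1565, 1639, 1602 and 1714 lower without WT replicates 1, 2 and 3 and KO replicate 3, and 993 higher without KO replicate 3). The cause of the other differences was not tested. Replicate numbers did not pair the libraries: deviations from the group means of same-numbered libraries correlated at −0.02 to −0.01, and 0 of 6 libraries correlated best with their own number. With the replicate number as a block, 8 of the 10 genes were called lower, and over all genes 2157 (10.7%) were lower and 1705 higher. C1qa in KO replicates 1 and 3 rested on 21 and 16 reads, so its level there is the least precise of the set.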
